A study of Mus musculus with 12 samples.

Results

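Complement genes were followed across mouse renal cortex in health, in diabetic nephropathy and in diabetic nephropathy with butyrate. The 9 genes were C3, C4a, C4b, C2, Cfb, Cfi, Cd55, C1ra and Serping1, chosen by name among 46095 gene symbols of the count table. The choice was made with earlier results of these data known. Shares and medians of the 9 beside those of all genes are therefore a description and not a test of the list. All 9 were among the 17530 genes with enough counts to be tested. The samples were 4 libraries from normal control mice (NC), 4 from mice with diabetic nephropathy (DN, the kidney disease of diabetes) and 4 from DN mice given sodium butyrate (DN+NaB). Every library carries the labels C57BL/6, renal cortex and 12 weeks of age. The means of inducing diabetes and the butyrate regimen are not stated in the labels. Butyrate is a short-chain fatty acid that gut bacteria make and that inhibits histone deacetylases. No label says which animal a library came from, so a p-value here reflects only how these samples vary, and that variation may be technical.

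Complement is a cascade of blood and tissue proteins that marks cells and microbes for removal. The classical route starts when C1q binds a target and switches on the proteases C1r and C1s, which cut C4 and C2. The lectin route reaches C4 and C2 through other proteases, and the alternative route uses factor B. All routes meet at C3, the cleavage of which tags the surface, and later components can build a pore in the membrane. Factor I and the membrane protein CD55 limit the C3-cutting enzymes, and C1 inhibitor, encoded by Serping1, blocks C1r and C1s. The liver makes most circulating complement, and kidney tubule cells are known to make C3 and other components locally.

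Libraries held 58394975 to 70674015 counts. The extraction protocol in the labels names prefrontal cortex, while the tissue label is renal cortex. Lrp2, the endocytic receptor of the proximal tubule, had 547305 to 852758 counts per library and Umod, of the thick ascending limb, 165229 to 481314. The neuronal gene Snap25 was at 0 throughout (a 0 allows up to 3 counts per library). In whole tissue, a change in the number of cells of a type and a change of RNA per cell cannot be told apart.

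C4b, C4a, Cfb and C2 lie together in the class III stretch of the major histocompatibility complex, and few counts were listed there for most genes. Of the 77 protein-coding genes nearest to C4b (40 on each side, leaving out the other members), 35 were listed at 0 in all 12 libraries, or 45.5%. The same was true of 19.2% of the 20455 protein-coding genes matched to RefSeq. Genes used by nearly all cells, Bag6, Ddx39b and Csnk2b, were listed at 0 in every library, so a 0 here does not show that a gene was silent. Skiv2l had 0 to 24 counts and Nelfe 0 to 14. Neu1, a lysosomal sialidase gene in the same stretch, had 2482 to 4416 counts in every library.

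DN 1, DN+NaB 1 and DN+NaB 4 stood apart at several genes along the chromosome from C4b. Rps18, a ribosomal protein gene, lies at place -39 from C4b in the gene order. Its counts were 734 to 860 in NC, and 0, 682, 370 and 288 in DN 1 to 4. It had 0, 643, 344 and 1 count in DN+NaB 1 to 4. Wdr46 lies beyond the 40 genes on either side. It had 8 counts in DN 1, 13 in DN+NaB 1 and 15 in DN+NaB 4, against 152 to 337 in the other 9 libraries. Between Rps18 and C4b, the genes Slc39a7, Rxrb, Brd2, Psmb9 and H2-Aa were at 0 in these 3 libraries. All 5 had counts in the other 9, as few as 2 for Rxrb and Psmb9. H2-DMb1 had 21, 3 and 4 counts in these 3 libraries, against 76 to 2619 in the other 9. Not all genes there followed. H2-K1 had 10889, 1517 and 3610 counts in the 3 libraries, against 607 to 907 in NC. Nearer to the members the picture was mixed. Notch4, at place -12, was at 0 in these 3 libraries and at 2 to 10 counts in the other diabetic ones. On the other side of C4b, Skiv2l had 6, 5 and 10 counts in DN 1, DN+NaB 1 and DN+NaB 4, and Nelfe 14, 14 and 12. These genes were chosen after their values were seen. For the members in the class III stretch, a change of RNA, a difference in genomic sequence between the animals and a change in how reads were assigned cannot be told apart. The labels give C57BL/6 for all mice and name no sub-strain or source of the animals. Results are also given without these 3 libraries. Around C3, by the same count, 13.8% of 80 genes were at 0 in all libraries, and around C1ra 15%.

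**Figure D1:**
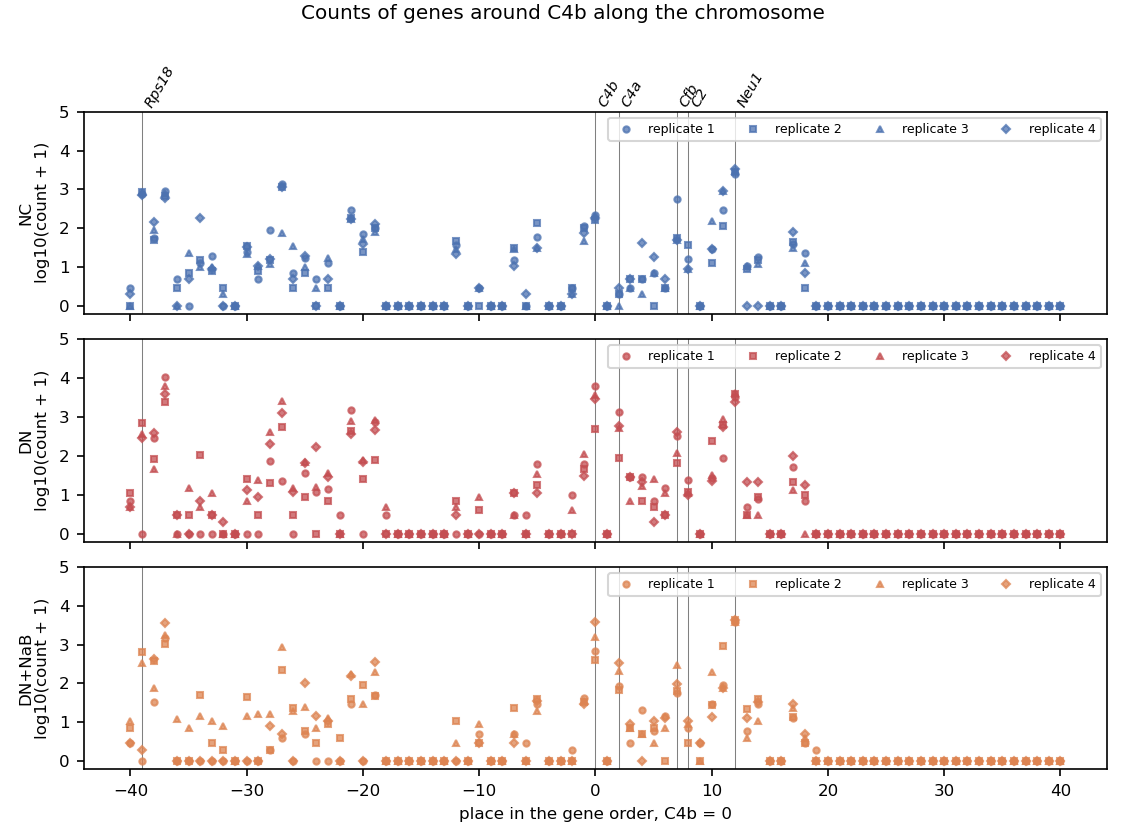
Counts of the protein-coding genes in RefSeq order around C4b, 1 panel per group, with replicates as marker shapes; the x axis is the place in the gene order and the y axis log10(count + 1). Rps18, C4b, C4a, Cfb, C2 and Neu1 are marked by lines; from place 19 on no gene has more than 1 count in any of the 12 libraries, and Rps18 is at 0 in DN 1 and DN+NaB 1.

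The first comparison asked how these genes differed between diabetic and normal cortex. C3, C4a and C4b were called higher in DN, the other 6 members were not called, and none was called lower. The threshold for a call was an adjusted p of 0.05 (Benjamini-Hochberg, over all tested genes) in edgeR's quasi-likelihood test, and 8.23% of genes passed it (3.82% higher, 4.42% lower). The log2 fold change was positive for 7 of the 9, with a median of 0.81 against 0.01 over all tested genes. In the 3 called members all 4 DN libraries lay above all 4 NC libraries, which was the case for 5.86% of tested genes. DESeq2 called 5 members, adding C1ra as higher and Cd55 as lower, and 11.2% of all genes to which it gave an adjusted p.

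C3 encodes the protein on which all routes converge. Its level, in counts scaled to library size (CPM), was 78.3, 63.3, 67.1 and 46 in NC 1 to 4. It measured 1162, 259, 702 and 1295 CPM in DN 1 to 4, and 363, 242, 395 and 377 in DN+NaB 1 to 4. Both diabetic groups lay wholly above NC, and the lowest DN library, DN 2, was close to the lowest DN+NaB library. The group means were 63.7 ± 13.4 (NC), 854 ± 471 (DN) and 344 ± 69.7 CPM (DN+NaB; SD, n = 4). C3 rose 13.4-fold in DN (log2 fold change 3.75 ± 0.43 SE, edgeR adjusted p = 0.00023). Without the 3 libraries that stood apart it was 3.56 (adjusted p = 0.00242).

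The C3 promoter is shown because C3 had the widest CPM difference between groups among the members. RefSeq's promoter table (GRCm38.p6) held C3, C1ra and Cd55 of the 9 members, each as a window of 300 bases across the start of transcription. The C3 window lies at chr17:57228087-57228386 on the minus strand, and capitals mark the only match among 5 motifs searched, TATAAA at bases 265 to 270 of the window.
C3: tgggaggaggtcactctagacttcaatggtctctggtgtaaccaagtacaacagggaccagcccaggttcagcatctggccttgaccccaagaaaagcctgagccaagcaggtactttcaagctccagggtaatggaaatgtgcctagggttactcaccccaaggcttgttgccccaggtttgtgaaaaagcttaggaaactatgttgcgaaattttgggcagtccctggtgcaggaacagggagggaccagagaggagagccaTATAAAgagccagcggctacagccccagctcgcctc
The motifs, read on both strands, were TTCNNNGAA (STAT type), an interferon-response type, an NF-kB type, CCAAT and TATAAA. Among 32851 promoter windows of 300 bases, they were present in 8.3%, 3.44%, 1.63%, 37.4% and 13.6%. The C1ra window held 1 match, TTCCCTGAA of the STAT type at bases 283 to 291, and the Cd55 window none. A match of letters is a description and not a binding site.

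C4b encodes C4, the protein that C1s cuts to form part of the classical C3-cutting enzyme. It measured 3.4, 2.57, 3.09 and 2.48 CPM in NC 1 to 4, and 97.7, 8.62, 54.8 and 45.9 in DN 1 to 4. In DN+NaB 1 to 4 it measured 11.6, 6.72, 25.5 and 55.3 CPM. Every diabetic library lay above every NC library, but within DN the highest library was more than 10 times the lowest. C4b rose 17.9-fold in DN (log2 fold change 4.17 ± 0.81 SE, edgeR adjusted p = 0.0104), and without the 3 libraries by 3.66 on the log2 scale (adjusted p = 0.0133).

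C4a is the close copy of C4b, known as sex-limited protein, and RefSeq lists it as a transcribed pseudogene in its C57BL/6J assembly. It had 1, 1, 0 and 2 counts in NC 1 to 4, then 1381, 88, 515 and 581 in DN 1 to 4, and 85, 66, 207 and 334 in DN+NaB 1 to 4. The NC counts were at the level of a few stray reads, while all 8 diabetic libraries held at least 66. Summed over libraries, C4a was 692 times higher in DN, scaled to library size, than in NC (exact Poisson interval 270 to 2540, 95%, from 2565 against 4 counts). This interval covers counting error only. The edgeR fit gave a log2 fold change of 9.23 ± 1.08 SE (adjusted p = 0.000265), a value that depends on how the near-zero NC counts were treated. It was 8.54 without DN 1 alone (adjusted p = 0.000198) and 8.54 without the 3 libraries (adjusted p = 0.000299).

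C4a and C4b share most of their sequence, and how reads that match both were counted is not given in the sources used here. Their longest GENCODE M21 transcripts were 95.9% identical, with 207 differing bases and 1 identical run of 433 bases, and 16.5% of the 100-base windows of C4a occurred unchanged in C4b. Only reads over differing bases tell the copies apart. The 40 bases with most differences are shown, among gap-free stretches in the coding part of C4b. Capitals mark the 11 differing bases, at transcript bases 2775 to 2814 of C4a and 2781 to 2820 of C4b.
C4a: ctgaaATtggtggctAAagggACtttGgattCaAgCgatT
C4b: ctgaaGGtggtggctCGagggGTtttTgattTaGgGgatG
Read as 1 gene, the pair had a mean of 2.9 ± 0.43 CPM for NC, 61.9 ± 44.8 for DN and 27.4 ± 23.5 for DN+NaB (SD, n = 4). The sum rose by 4.42 ± 0.82 SE on the log2 scale in DN (edgeR adjusted p = 0.0079) and by 3.24 ± 0.78 in DN+NaB against NC (adjusted p = 0.0185). Without the 3 libraries the DN sum was 3.88 (adjusted p = 0.0109), and the DN+NaB sum was 2.67 and no longer called (adjusted p = 0.0516). Without DN+NaB 4 alone the DN+NaB sum was 2.52 (adjusted p = 0.0448).

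The make-up of the pair also differed between groups. C4a held 0.448%, 0.599%, 0% and 1.1% of the pair's counts in NC 1 to 4. It held 18.1%, 15.2%, 12.5% and 17.0% in DN, and 11.1%, 14.0%, 11.8% and 7.98% in DN+NaB. The share was 15.7% ± 2.45 (SD, n = 4) in DN against 0.537% ± 0.454 in NC, with no overlap (two-sided exact permutation p = 0.0286, the smallest that 4 against 4 can give, 0.0429 adjusted over 9 such tests). DN+NaB against NC gave the same p. The difference between DN+NaB and DN did not pass (exact permutation p = 0.0571, adjusted 0.0734). These tests were added after the values were seen.

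**Figure D2:**
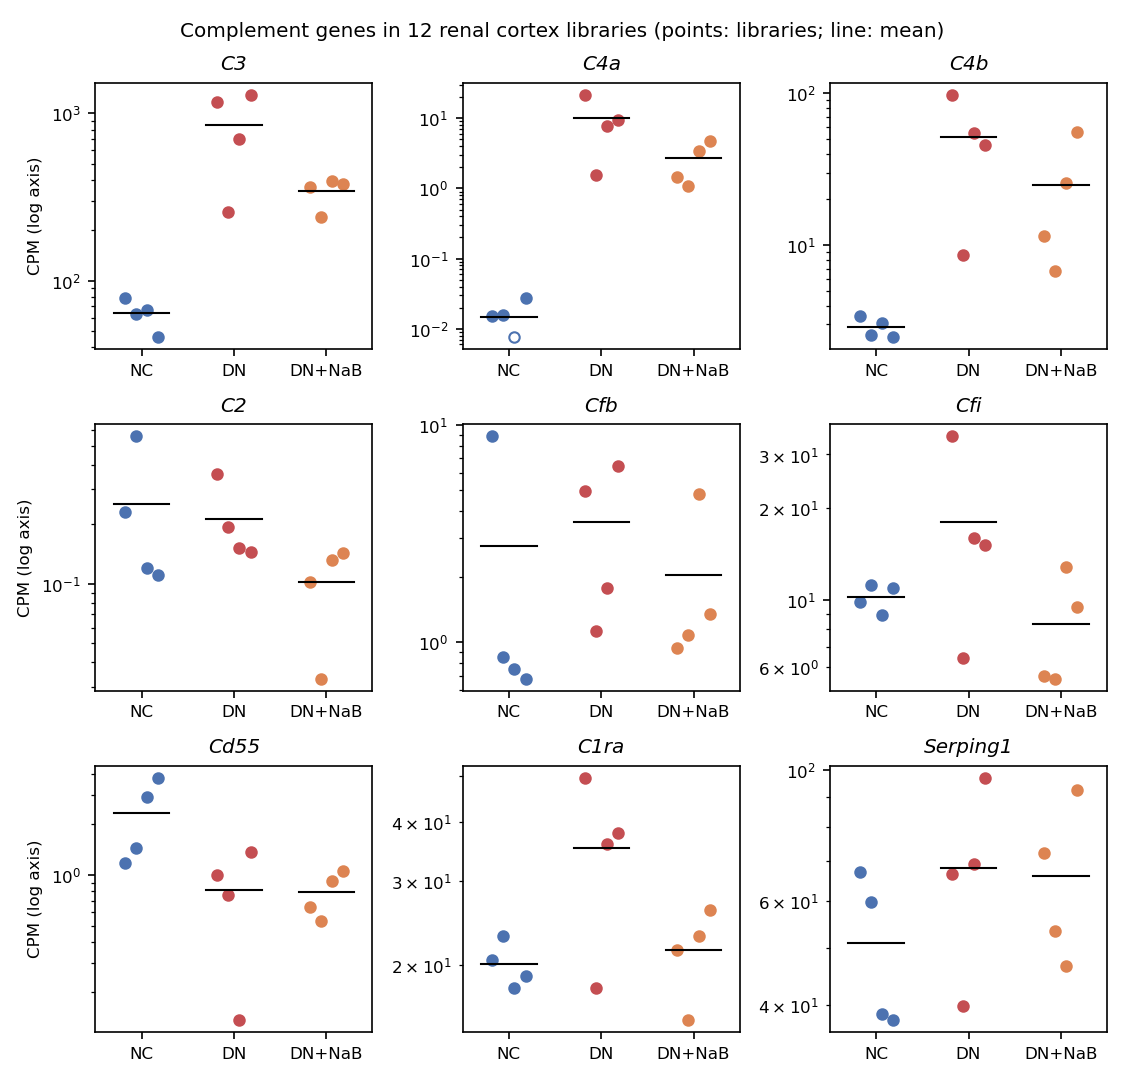
CPM of each of the 9 complement genes in NC, DN and DN+NaB on log axes, 1 point per library and a line at the group mean; the open point for C4a is the NC library with 0 counts, drawn at the foot of the axis. C3, C4a and C4b are higher in every diabetic library than in any NC library, and DN 2 is the lowest DN library for 7 of the 9 genes.

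The remaining members of the C3-cutting enzymes were low and varied. C2, the protease partner of C4, had 2 to 36 counts per library. It measured 0.230, 0.557, 0.121 and 0.111 CPM in NC 1 to 4, 0.361, 0.194, 0.151 and 0.145 in DN and 0.102, 0.0331, 0.132 and 0.144 in DN+NaB. NC and DN overlapped (log2 fold change -0.25 ± 0.60 SE, edgeR adjusted p = 0.863), and without NC 2 the sign changed (0.47). All 4 DN+NaB libraries lay below all 4 DN libraries, the nearest being 0.145 and 0.144 CPM, and the test did not call the difference (-1.03 ± 0.64, adjusted p = 0.628). Of all tested genes, 2.44% were separated downwards in this way.

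Cfb encodes factor B, the protease of the alternative route. In NC it measured 8.83 CPM in replicate 1 and 0.680 to 0.851 in the other 3. In DN 1 to 4 it measured 4.94, 1.13, 1.77 and 6.46 CPM, and in DN+NaB 0.936, 1.08, 4.79 and 1.35. The groups overlapped through single high libraries, in NC 1 and DN+NaB 3. The DN difference from NC was 0.36 ± 0.93 SE (edgeR adjusted p = 0.875), and it ranged from -0.10 to 2.23 when single libraries were left out, the higher value without NC 1. The counts do not fix a direction for Cfb in either diabetic group against NC.

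C1ra encodes C1r, the protease that activates C1s. It measured 20.5, 23.0, 17.9 and 19.0 CPM in NC 1 to 4, 49.5, 17.9, 35.9 and 38.0 in DN and 21.5, 15.3, 23.0 and 26.1 in DN+NaB. In 3 DN libraries it was above all NC libraries, and DN 2 was at the NC level. The difference was 0.81 ± 0.25 SE and missed the threshold in edgeR (adjusted p = 0.0593). It was called by DESeq2 (0.82, adjusted p = 0.0154) and in edgeR without DN 2 (1.04, adjusted p = 0.00346), and it was 0.61 without the 3 libraries (adjusted p = 0.198). By leaving out 1 library at a time it ran from 0.61 to 1.04.

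C1ra has a neighbouring copy, C1rb, and the pair changed its make-up as C4a and C4b did. Mean C1rb levels were 0.431 ± 0.048 CPM (NC), 5.88 ± 2.33 (DN) and 3.65 ± 1.34 (DN+NaB). It rose 13.6-fold in DN (log2 fold change 3.76 ± 0.37 SE, edgeR adjusted p = 2.44e-05) and 8.43-fold in DN+NaB against NC. The transcripts of the pair were 79.8% identical over an alignment with 552 gap columns, which count as not identical. Outside the gaps only 49 bases differed, and 1 identical run had 757 bases. Of the 100-base windows of C1ra, 34.5% occurred unchanged in C1rb, a larger share than the 16.5% for C4a in C4b. Among gap-free stretches in the coding part of C1rb, the 40 bases with most differences show where reads can tell the copies apart. Capitals mark the 8 that differ.
C1ra: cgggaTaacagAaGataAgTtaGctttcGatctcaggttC
C1rb: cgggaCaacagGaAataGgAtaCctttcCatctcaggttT
C1rb held 1.92% to 2.43% of the pair's counts in NC. It held 10.8% to 17.3% in DN libraries and 10.8% to 19.3% with butyrate. Both diabetic groups differed from NC (two-sided exact permutation p = 0.0286 each, 0.0429 adjusted over the 9 tests), and DN+NaB did not differ detectably from DN (exact permutation p = 0.971). Summed, C1ra and C1rb rose by 1.01 ± 0.25 SE in DN (edgeR adjusted p = 0.0229). That call on the sum was lost without NC 1, 3 or 4, without DN 1, 3 or 4, and without the 3 libraries (adjusted p = 0.0511 to 0.0912).

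C1s, the next protease, is encoded by C1s1 and its copy C1s2, and their counts moved in opposite directions. C1s2 was at 0.181 ± 0.072 CPM in NC and 2.03 ± 1.16 in DN, and it rose 11.1-fold (3.47 ± 0.47 SE on the log2 scale, edgeR adjusted p = 0.00038). C1s1 fell by 0.88 ± 0.26 on the log2 scale, from 21.3 ± 2.57 to 11.6 ± 4.28 CPM (adjusted p = 0.0491), a call lost in 13 of 21 alternatives. C1s2 held 0.456% to 1.37% of the pair's counts in NC, against 5.81% to 27% in DN libraries and 8% to 22.6% with butyrate (two-sided exact permutation p = 0.0286 for each against NC, 0.0429 adjusted over the 9 tests). The sum of the pair was not called in DN (-0.66 ± 0.21, edgeR adjusted p = 0.0763). In all 3 copy pairs the copy with few counts in NC took a larger share in both diabetic groups. For the C1r and C1s pairs too, several accounts cannot be told apart. These are a change of RNA, a difference in genomic sequence between the animals and a change in how reads were assigned.

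**Figure D3:**
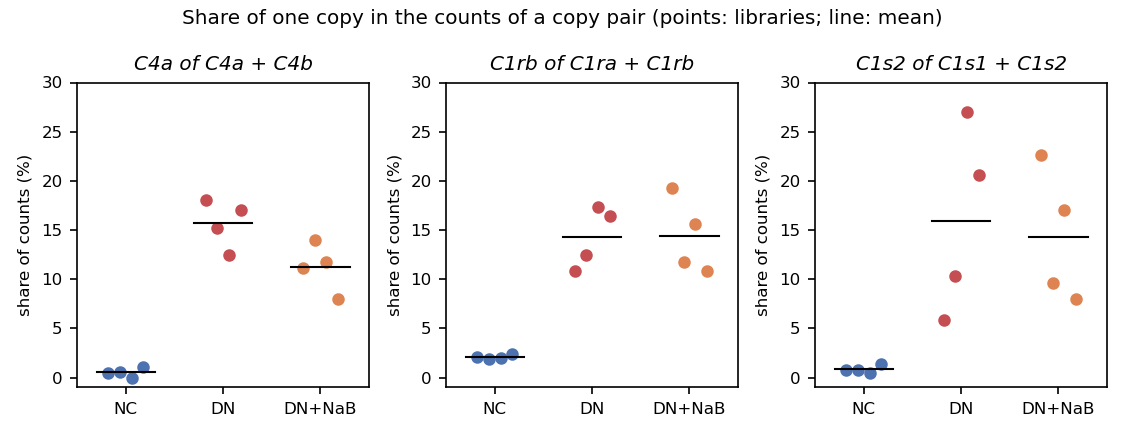
Share of the counts of a copy pair held by the copy that is rarer in NC (percent, 1 point per library, line at the mean) for C4a of C4a + C4b, C1rb of C1ra + C1rb and C1s2 of C1s1 + C1s2. NC lies at 0% to 2.43% in all 3 panels, and the diabetic libraries at 5.81% to 27%, with no overlap.

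Among the regulators, none was called in any of the 3 comparisons by edgeR with all 12 libraries fitted together. At an unadjusted p under 0.05, Cfi passed in DN+NaB against DN, as did 9.85% of all tested genes. Cd55 passed in both comparisons with NC, where 8.23% (DN) and 15.6% (DN+NaB) of all tested genes passed even after adjustment. Cfi encodes factor I, which cuts C3b and C4b. It measured 9.81, 11.2, 8.92 and 10.9 CPM in NC 1 to 4, 34.4, 6.42, 15.9 and 15.1 in DN and 5.6, 5.5, 12.8 and 9.46 in DN+NaB. DN ranged from below to above all NC libraries, so the groups overlapped (0.82 ± 0.41 SE, edgeR adjusted p = 0.277). Without DN 1 or the 3 libraries that stood apart, the difference was close to 0.29 on the log2 scale.

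Cd55 encodes decay-accelerating factor, the membrane protein that breaks up C3-cutting enzymes. It measured 1.18, 1.44, 2.92 and 3.79 CPM in NC 1 to 4, 1, 0.757, 0.136 and 1.37 in DN and 0.647, 0.530, 0.922 and 1.06 in DN+NaB. DN+NaB lay wholly below NC, and 1 DN library overlapped NC. The differences from NC were -1.51 ± 0.54 SE in DN (edgeR adjusted p = 0.11) and -1.56 ± 0.54 in DN+NaB (adjusted p = 0.0676). DESeq2 called Cd55 lower in both (adjusted p = 0.0312 and 0.0169), where it called 11.2% and 17.3% of the genes with an adjusted p. In DN+NaB against NC, edgeR also called Cd55 lower when only these 2 groups were fitted (-1.56, adjusted p = 0.0171) and without DN 3 (-1.56, adjusted p = 0.0144). Cd55b, its copy, had at most 4 counts in a library and was not tested.

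Serping1 encodes C1 inhibitor and had the highest level per length among the members in NC. It measured 67.3, 59.8, 38.6 and 37.7 CPM in NC 1 to 4, 66.7, 39.8, 69.2 and 96.8 in DN and 72.3, 53.5, 46.5 and 92.3 in DN+NaB. The 3 groups overlapped. The DN difference was 0.42 ± 0.29 SE (edgeR adjusted p = 0.439) and the DN+NaB difference from NC 0.38 ± 0.29 (adjusted p = 0.408).

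The order of the members by level per exon length differed between groups. C4b, C4a, Cfb and C2 lie where many genes were listed at 0 in all libraries, so their place against the other members is uncertain. In CPM per kilobase, NC had Serping1 at 21.9 ± 6.43 (SD, n = 4), C3 at 12.4 ± 2.61, C1ra at 6.74 ± 0.739 and Cfi at 4.60 ± 0.472. Cfb (0.984 ± 1.43), C4b (0.506 ± 0.0763) and Cd55 (0.481 ± 0.255) followed within each other's ranges. C2 (0.0658 ± 0.0539) and C4a (0.00236 ± 0.00183) were lowest. In DN, C3 came first at 166 ± 91.7, above Serping1 at 29.3 ± 10.0 in every library. C1ra, C4b and Cfi, at 11.8 ± 4.38, 9.09 ± 6.42 and 8.10 ± 5.31, had overlapping ranges. C4a (1.63 ± 1.36) and Cfb (1.26 ± 0.901) followed and overlapped, above Cd55 (0.168 ± 0.107) and C2 (0.0549 ± 0.026). In DN+NaB, C3 was again first at 66.9 ± 13.6 and Serping1 next at 28.5 ± 8.84. C1ra, C4b and Cfi stood at 7.21 ± 1.53, 4.35 ± 3.83 and 3.75 ± 1.57, and Cfb and C4a at 0.721 ± 0.652 and 0.433 ± 0.28.

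Libraries of a group were high or low for many members at once. DN 2 was the lowest DN library for 7 of the 9 members, and DN 1 or DN 4 the highest for all 9. DN+NaB 2 was the lowest of its group for 7, and DN+NaB 4 the highest for 6. Of the interferon-response genes Irf7, Isg15, Ifit1, Ifit3, Usp18 and Oas1a, 5 of 6 were called higher in DN and 4 in DN+NaB against NC. Their summed level was 74.2 to 103 CPM in NC, and 434, 353, 305 and 621 in DN 1 to 4. It was 134, 211, 464 and 579 CPM in DN+NaB 1 to 4. DN 4 and DN+NaB 4 were the highest of their groups for this sum, and DN 3 and DN+NaB 1 the lowest. The part of this response in the complement values was not tested.

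Markers of other cells moved in several ways beside these results. The 7 macrophage and dendritic cell markers summed to 902 to 1250 CPM among NC libraries, 1130 to 4190 among DN and 319 to 986 among DN+NaB. Most of that sum was Cd74, which also serves class II antigen presentation and which spanned 712 to 1020 CPM in NC libraries and 1020 to 4080 in DN ones. The other 6 markers summed to 165 to 226 CPM for NC, 104 to 207 for DN and 97.9 to 115 for DN+NaB. The median log2 fold change of the 7 in DN was -0.56, none was called higher, and 1, Csf1r, was called lower (-0.91, edgeR adjusted p = 0.000266). Against NC, 5 of them were called lower in DN+NaB. The 6 injured tubule markers summed to 651 to 770 CPM, 779 to 2800 and 749 to 1090 in the same order, and 2 were called higher in DN and 2 in DN+NaB against NC. Most of the sum was Spp1, and the DN maximum was DN 4 alone. Spp1 was at 2413 CPM in DN 4 and 647.2 to 1104 in the other DN libraries. Lcn2 was at 240.8 CPM in DN 4 against 2.464 to 11.14, and Havcr1 at 16.56 against 0.1056 to 0.768. The 7 hepatocyte markers summed to 209 to 241 (NC), 205 to 322 (DN) and 198 to 254 CPM (DN+NaB), and 1 was called higher in each diabetic group against NC. That sum hid opposite moves. Alb spanned 4.452 to 7.365 CPM in NC libraries and 8.636 to 22.6 in diabetic ones, while Ttr spanned 56.45 to 69.69 and 1.531 to 55.39. T and NK cell markers were at 14.9 to 25.3, 5.12 to 17.1 and 2.20 to 3.39 CPM, and 2 of 6 were called lower in DN and 6 in DN+NaB against NC. Neutrophil markers were at most 9.17 CPM in any library, and Elane was at 0 in NC. Of the proximal tubule genes Lrp2, Slc34a1 and Cubn, 0 of 3 were called, and of the thick ascending limb genes Umod and Slc12a1, 1 was lower in DN and 2 in DN+NaB. The part of these cells in the complement values was not tested.

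The second comparison asked whether butyrate changed these genes in diabetic cortex. No member was called in DN+NaB against DN by edgeR, where 0.0228% of genes (4 of 17530) were called. All 9 log2 fold changes were below 0, with a median of -1.03 against -0.02 over all tested genes. At an unadjusted p under 0.05, 4 members passed, as did 9.85% of all genes. DESeq2 called 1 member, C3, and 1.55% of all genes with an adjusted p.

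C3 differed by -1.31 ± 0.39 SE between DN+NaB and DN (edgeR adjusted p = 0.274). The DESeq2 value was -1.32 (adjusted p = 0.0158), and edgeR called C3 when DN 2 was left out (-1.61, adjusted p = 0.0486). The DN libraries other than DN 2 lay above all DN+NaB libraries. C4a differed by -1.91 ± 0.65 (edgeR adjusted p = 0.363), C4b by -1.06 ± 0.71 (adjusted p = 0.662) and their sum by -1.17 ± 0.71 (adjusted p = 0.629). Cfi differed by -1.11 ± 0.42 (adjusted p = 0.416) and C1ra by -0.72 ± 0.25 (adjusted p = 0.35). Cfb differed by -0.81 ± 0.94 (adjusted p = 0.803). The differences of Cd55 and Serping1 were -0.04 ± 0.54 and -0.04 ± 0.29 (adjusted p = 0.983 and 0.97). Missing the threshold does not show that the groups were alike, and the standard errors leave room for changes of the sizes given.

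The third comparison set treated diabetic cortex against normal cortex. It shares libraries with both earlier comparisons and is not independent of them. C3, C4a and C4b were called higher and none lower, against 15.6% of all genes called (6.62% higher, 8.94% lower). The median log2 fold change of the 9 was 0.10, against -0.01 over all genes. The same 3 members were separated upwards and Cd55 downwards, which held for 14% and 13.9% of tested genes.

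C3 rose 5.41-fold in DN+NaB against NC (log2 fold change 2.43 ± 0.40 SE, edgeR adjusted p = 0.00187; 2.33 without the 3 libraries, adjusted p = 0.0228). C4a, with 692 counts against 4, was 186 times higher after scaling to library size (exact Poisson interval 72.3 to 685, 95%), and its fitted change was 7.32 ± 1.07 (adjusted p = 0.000829). C4b rose by 3.10 ± 0.78 on the log2 scale (adjusted p = 0.0224). That call on C4b was lost without any 1 of the 4 NC libraries (adjusted p = 0.0525 to 0.0563), without DN+NaB 4 (2.34, adjusted p = 0.0548) and without the 3 libraries (2.49, adjusted p = 0.0649). C2, Cfb, Cfi and C1ra differed by -1.28 ± 0.63, -0.45 ± 0.94, -0.29 ± 0.41 and 0.10 ± 0.25 and were not called (adjusted p = 0.189, 0.79, 0.676 and 0.826).

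**Figure D4:**
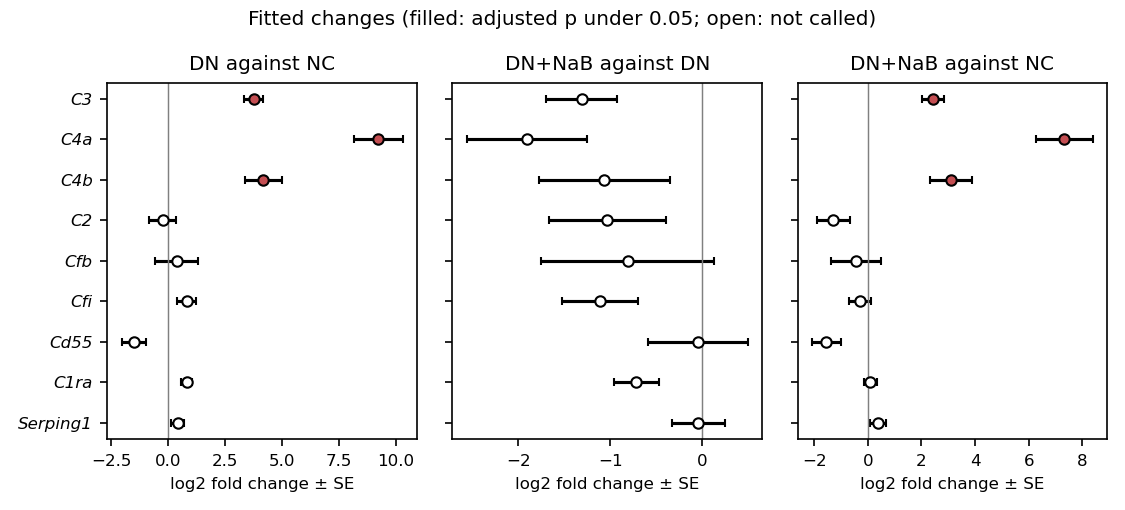
Fitted log2 fold changes of the 9 members with their standard errors in the 3 comparisons, n = 4 libraries per group; filled points passed an adjusted p of 0.05 in edgeR, open points did not. C3, C4a and C4b are filled in both comparisons with NC, and in DN+NaB against DN all 9 points are open and below 0.

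Other genes of the complement system did not follow the members as a group. Of 47 further genes listed by role, 35 had enough counts to be tested. In DN against NC, 4 were called higher, 2 lower and 29 not at all, with a median log2 fold change of -0.14, where 8.23% of all tested genes were called. Between DN+NaB and DN none was called by edgeR (0.0228% of all genes), 5 had an unadjusted p under 0.05 (9.85% of all), and DESeq2 called 1, Itgb2 (-0.85, adjusted p = 0.0248). Between DN+NaB and NC, 5 were higher and 7 lower, with a median of -0.20, where 15.6% of all tested genes were called. That last count fell to 6 without NC 1, without DN+NaB 2 and without the 3 libraries, and to 7 without NC 3, DN+NaB 1 or DN+NaB 3. The 12 untested genes, among them Hc (complement C5), C8b and C9, had at most 17 counts in any library.

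In the classical start, all 6 genes were tested. C1rb and C1s2 were called higher and C1s1 lower in DN, and the 3 chains of C1q, the recognition protein, were not called with all libraries. Treated cortex differed from NC, where C1qa, C1qb and C1qc fell by 0.62 ± 0.18, 0.62 ± 0.18 and 0.71 ± 0.18 SE (edgeR adjusted p = 0.03, 0.029 and 0.0168). These calls were lost in 8, 6 and 3 of 21 alternatives. All 3 were lost without NC 1 (adjusted p = 0.0966, 0.102 and 0.0603), without DN+NaB 2 (0.0823, 0.0845 and 0.053) and without the 3 libraries that stood apart (0.104 to 0.112). Those of C1qa and C1qb were also lost without NC 3, DN+NaB 1 or DN+NaB 3, and that of C1qa without NC 2 and with the replicate block. Without NC 4, C1qa and C1qc were called lower in DN too (-0.58 and -0.69, edgeR adjusted p = 0.0307 and 0.0243). C1qa is also on the macrophage marker list.

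In the lectin start, 5 of 8 genes were tested, 0 were called in DN, and Masp1, a protease of that route, rose by 0.70 ± 0.20 SE in DN+NaB against NC (edgeR adjusted p = 0.0318, lost in 10 of 21 alternatives). Of the alternative genes, neither Cfd (factor D) nor Cfp (properdin) was called in edgeR with all libraries. Cfd was called lower in DN+NaB against NC by DESeq2 (-4.11, adjusted p = 0.0331) and by edgeR without DN 2 (-4.03, adjusted p = 0.0272) or without DN 3 (-4.03, adjusted p = 0.0494). In the terminal group, 4 of 7 were tested, and C8a, a chain of the pore component C8, was at 13 ± 1.32 CPM in NC libraries and 4.5 ± 1.06 in DN ones. It fell by 1.53 ± 0.29 SE on the log2 scale (edgeR adjusted p = 0.00462). In DN+NaB it was at 4.71 ± 2 CPM, and all 8 diabetic libraries lay below all NC libraries.

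Among the fluid-phase regulators, Cpn1, the catalytic chain of the carboxypeptidase that trims C3a and C5a, spanned 75.2 to 83.9 CPM among NC libraries, 106 to 206 among DN and 141 to 164 among DN+NaB. It rose by 0.87 ± 0.16 SE in DN (edgeR adjusted p = 0.00372) and by 0.95 ± 0.16 in DN+NaB against NC (adjusted p = 0.00131). Clu, which encodes clusterin, an inhibitor of pore assembly, was at 351 ± 46.9, 553 ± 164 and 578 ± 32.9 CPM. It rose by 0.66 ± 0.18 in DN (adjusted p = 0.0363, lost in 10 of 21 alternatives) and by 0.72 ± 0.18 in DN+NaB against NC (adjusted p = 0.0146).

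No further membrane regulator on the list was called. Cr1l, which encodes the rodent regulator Crry, was at 34.1 ± 5.78, 41.8 ± 7.93 and 42.8 ± 9.01 CPM. Among 8 tested receptors, 0 were called in DN by edgeR or DESeq2. In edgeR 1 had an unadjusted p under 0.05, where 8.23% of all tested genes passed even after adjustment. Without DN 4, edgeR called 2 lower in DN: Itgam, an integrin chain of a leukocyte complement receptor (-1.31, adjusted p = 0.0131, against 0.42 and 0.796 with all libraries), and Cd93 (-0.51, adjusted p = 0.0365). Against NC, DN+NaB differed in 2 receptors: the integrin genes Itgb2 and Itgax, whose products form complement receptors on leukocytes, fell by 1.13 ± 0.22 and 0.89 ± 0.25 SE (edgeR adjusted p = 0.0033 and 0.0263). The Itgax call was lost in 7 of 21 alternatives, namely without NC 1, 2 or 3, without DN+NaB 1, 2 or 3 and without the 3 libraries (adjusted p = 0.0593 to 0.0786). Itgam, Cd93, C3ar1 and C5ar1 (the receptors of C3a and C5a) were called lower in DN+NaB against NC without DN 4 (adjusted p = 0.00504, 0.0262, 0.034 and 0.0182) and with only these 2 groups fitted (adjusted p = 0.00548, 0.0175, 0.0352 and 0.0215). Itgax is also on the macrophage marker list. Cd93 was at 44.8 ± 7.18, 39.5 ± 15.8 and 33.1 ± 0.855 CPM and was not called with all libraries.

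**Figure D5:**
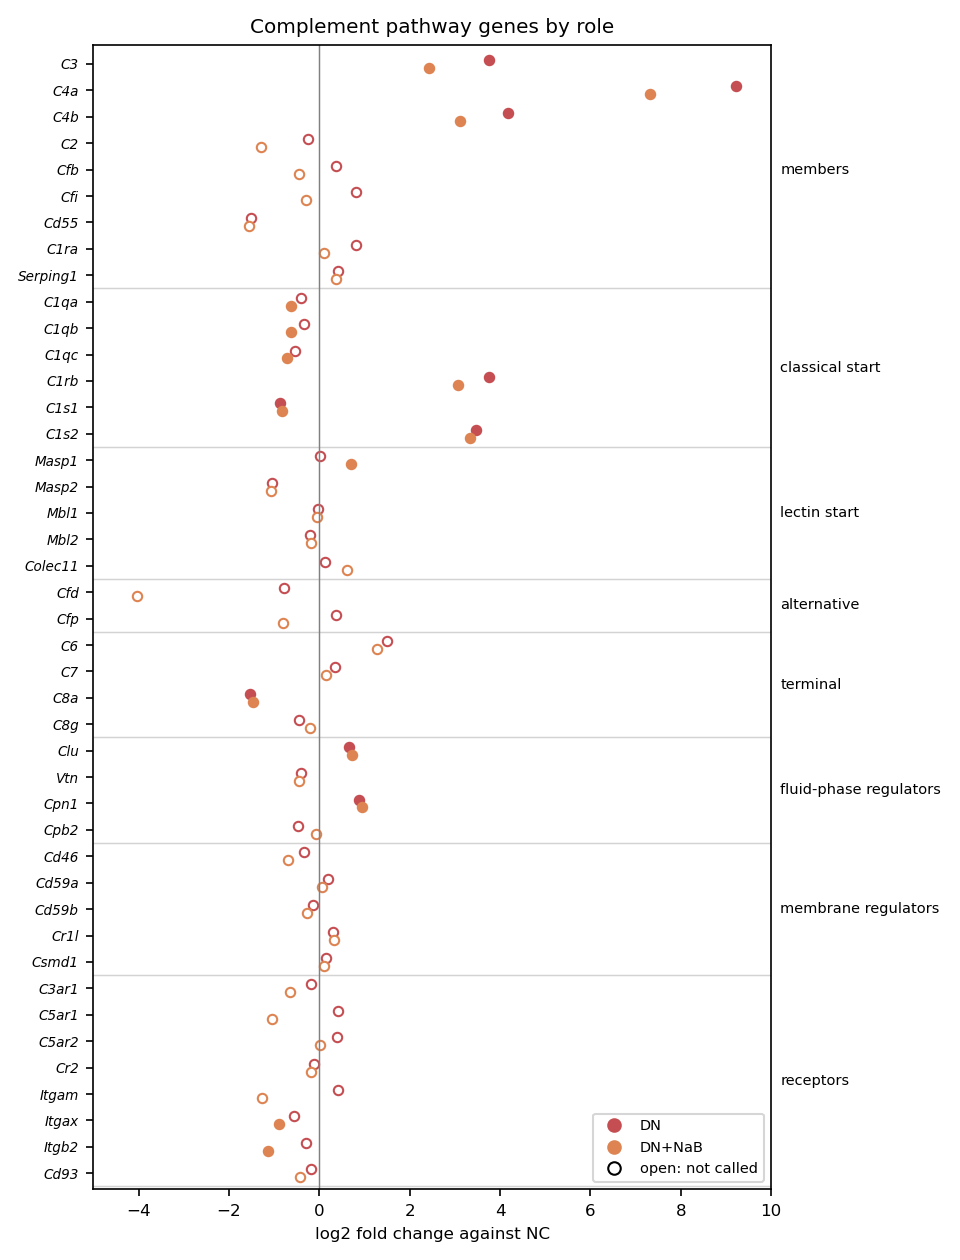
Log2 fold changes against NC of the 9 members and 34 of the 35 tested genes of the complement list, by role, for DN and DN+NaB; filled points passed an adjusted p of 0.05 in edgeR. C1rb and C1s2 stand with C3, C4a and C4b to the right, while most genes lie between -2 and 2 and are open.

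The genes beside C4b, C4a, Cfb and C2 did not share one direction. The window held 11 tested neighbours: H2-Eb1, Notch4, Agpat1, Ppt2 and Tnxb on one side, Dxo between the members, and Ehmt2, Slc44a4, Neu1, 1110038B12Rik and Hspa1b on the other. H2-Eb1, a class II histocompatibility gene, rose by 2.47 ± 0.69 SE in DN (edgeR adjusted p = 0.0486), a call lost in 11 of 21 alternatives. Notch4 fell by 3.30 ± 0.92 in DN (adjusted p = 0.0412), from 0.498 ± 0.178 to 0.0496 ± 0.0448 CPM, a call lost in 9 of 20. Neu1 rose by 0.60 ± 0.15 in DN+NaB against NC (adjusted p = 0.012), and Notch4 fell by 3.30 ± 0.92 there (adjusted p = 0.0266). Both of these were lost without the 3 libraries (adjusted p = 0.0833 and 0.112). The other neighbours were not called.

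Across the 12 libraries, the genes whose centred log2 CPM lay nearest to C3 were C1rb, H2-T10 and H2-K1, with root mean square differences of 0.442, 0.477 and 0.644, where C3 itself spanned 4.81. H2-K1, a class I histocompatibility gene, had group means of 11.2 (NC), 92.7 (DN) and 31 CPM (DN+NaB). Nearest to C4b were H2-T10, C3 and H2-K1 (0.536, 0.669 and 0.759, range 5.28). Nearest to C4a were Igtp, Greb1 and Mrps23, at 1.15, 1.25 and 1.3 of a range of 9.44. The measure ranks likeness over libraries that share the group difference and says nothing of shared control. H2-T10 and H2-K1 belong to the histocompatibility complex as C4a and C4b do, and reads of such related genes may have been split between copies.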

How the data were processed

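RNA-seq of 12 mouse renal cortex libraries (NC, DN, DN+NaB, 4 each) was taken from the authors' deposited table, which holds raw counts for each gene symbol as whole numbers. The submitters' processing notes name HISAT2 2.0.4. The counting program, strand setting, handling of reads that match several places, annotation and build were not given in the sources used here, so copies, overlapping and antisense genes are uncertain. Groups came from the sample titles.

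The counts were fitted with edgeR 4.0.16 (R 4.3.3): filterByExpr by group left 17530 genes, TMM factors scaled the libraries, and all 12 libraries entered 1 robust quasi-likelihood fit with group as the only term. Tests are two-sided, with Benjamini-Hochberg adjustment within a comparison. CPM values use the TMM factors. In DN against NC the fitted log2 changes had a median SE of 0.202. Copy pairs were also summed before the fit, and shares within pairs were compared by exact permutation over libraries. The lowest chi-square per degree of freedom between libraries was 23.6, so no library repeated another to within counting noise. This value cannot show whether libraries came from the same animal, because separate preparations differ by more than counting noise. The fit was tested on simulated data. DESeq2 1.42.0, other scalings and filters, a replicate block and left-out libraries were alternatives. Leaving out DN 1, DN+NaB 1 and DN+NaB 4 together, and summing the C1 pairs, were choices made after seeing the data.

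The members and lists were chosen with earlier results of these data known. Named genes were all members, listed complement genes called in any comparison, the 5 most abundant of them, the tested neighbours of the clustered members, the 3 genes nearest in pattern to each called member, and tissue markers; some genes of these lists are not reported here. Per-length levels used the exon bases of GENCODE M21. A planned identity of proteins was replaced by that of transcripts. RefSeq (GRCm38.p6) served for names, gene order, gene types and promoters; 16391 tested symbols matched it.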

Additional observations from a re-analysis of the deposited data

Results flagged for a closer look

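Among the members and listed complement genes, 12 of 132 groups of 4 libraries held a library far from the other 3 (Dixon's criterion at 95%, on CPM). Its rate of about 1 in 20 holds for independent groups of normally distributed values. CPM values need not be so distributed and the groups share libraries, so the count was not read as an excess. For the members, both were in Cfb: NC 1 at 8.83 CPM against 0.68 to 0.851, and DN+NaB 3 at 4.79 against 0.936 to 1.35. DN 4 was high for Cfp (6.07 CPM against 0.827 to 1.2), C5ar1 (7.75 against 1.01 to 1.57) and Itgam (19.3 against 1.39 to 2.48), genes that myeloid cells express. Cfd was at 2.27 CPM in NC 3 against 0.138 to 0.402, and at 1.53 in DN 2 against 0 to 0.157. Clu was at 282 CPM in NC 4 against 369 to 385. In DN+NaB, C7 was at 9.6 CPM in replicate 4 (others 5.07 to 5.46), Itgb2 at 7.52 in replicate 4 (others 5.75 to 6.04), Cd46 at 0.56 in replicate 3 (others 0.17 to 0.232) and Mbl2 at 0.298 in replicate 2 (others 0.115 to 0.119).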

How the results depend on the processing

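The calls of C3 and C4a against NC were kept in all 21 alternatives run, and so was the call of C4b in DN. DESeq2 called 5 members in DN against NC, and 1 member (C3) and 1 listed gene (Itgb2) in DN+NaB against DN. Leaving out 1 library at a time gave 3 to 4 called members in DN, 0 to 1 in DN+NaB against DN, and 6 to 16 listed genes in DN+NaB against NC. Without DN 1, DN+NaB 1 and DN+NaB 4 together that last count was 6, the C4a and C4b sum in DN+NaB against NC was 2.67 and not called, and Cfb (0.082), C1ra (-0.065) and Serping1 (-0.021) changed sign there. With library size as the only scaling, which moved the median of all genes to -0.08, -0.04 and -0.12 in the 3 comparisons, C1ra in DN+NaB against NC was -0.009 and the C1s1 and C1s2 sum in DN+NaB against DN -0.006. Leave-one-out ranges that crossed 0 were -0.63 to 0.47 for C2 and -0.10 to 2.23 for Cfb in DN against NC. For DN+NaB against DN they were -0.40 to 0.32 for Cd55, -0.25 to 0.18 for Serping1 and -0.12 to 0.19 for the C1s1 and C1s2 sum. For DN+NaB against NC they were -1.30 to 1.42 for Cfb and -0.008 to 0.232 for C1ra. The cause was not tested for any of these. Over all genes, the count called in DN+NaB against DN ran from 0 to 269.

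The titles number replicates 1 to 4 in each group, but nothing says that a number marks a shared animal or day. Over 12 same-numbered pairs the correlation of deviations ran from -0.245 to 0.269, with 6 over 0.1, and 5 libraries correlated best with their own number. The main fit used no pairing because no label gives one, and these correlations do not settle whether some numbers mark a shared day. With the replicate block, 3, 0 and 3 members and 5, 0 and 10 listed genes were called in the 3 comparisons, the C4a and C4b sum was 4.04, -1.13 and 2.91, and Cfb in DN+NaB against NC was 0.24. Genes with few counts, C2 above all, can show only large changes at this depth.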
